A study of Mus musculus with 21 samples.

Results

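Interferon-stimulated genes are the genes that cells switch on when an interferon binds its receptor. The type I interferons signal through a receptor that activates a complex with Stat2 and Irf9, which binds a promoter element called ISRE in genes of antiviral defence such as the Ifit, Oas and Mx families. The type II interferon, interferon-gamma, signals through its own receptor and acts on an element called GAS to induce the transcription factor Irf1, the feedback inhibitor Socs1 and the guanylate-binding proteins (Gbp). Both pathways overlap, and many of the genes respond to either interferon.

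The members are 37 mouse genes listed by symbol as interferon-stimulated genes, and all 37 were found among the 27179 genes of the count tables. They were divided by family into a type II list of 7 genes (Gbp2, Gbp3, Gbp4, Gbp5, Gbp7, Irf1 and Socs1), a type I list of 10 genes (Ifit1, Ifit2, Ifit3, Mx1, Mx2, Oas1a, Oas2, Oas3, Oasl1 and Oasl2) and 20 other members. All 37 members passed the filter on low counts, which left 16377 genes tested.

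The libraries were mRNA-seq of podocyte fractions, which magnetic beads coupled through nephrin antibodies had pulled from digested kidney cortex of single male C57BL/6J mice. The groups were 6 young mice of 4 months without treatment, 7 middle-aged mice of 19.5 months given saline, and 8 middle-aged mice of 19.5 months given MCC950, a small-molecule inhibitor of the NLRP3 inflammasome, at 10 mg/kg. Saline and MCC950 were given for 6 weeks from 18 months of age. The study asked what changes in podocytes with age and which of these changes depend on NLRP3, so the comparisons were saline-treated against young (age), MCC950-treated against saline-treated (treatment) and MCC950-treated against young. The first and the second share the saline libraries, and the first and the third share the young libraries. The young mice were untreated, so in the first comparison age cannot be told apart from the saline treatment or from other differences between these groups. The words "with age" below name this comparison. C57BL/6 mice carry defective Mx1 and Mx2 genes, so a transcript of these genes does not stand for working protein.

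Library totals were 27375870 to 36827823 counts in young, 45772937 to 84876399 in saline-treated and 35440472 to 58247271 in MCC950-treated mice, and every saline library was deeper than every young one. Mitochondrial genes took a median of 71.1%, 68.6% and 57.5% of the counts in the 3 groups. Marker lists were used to describe which cells the podocyte fractions held. All 10 podocyte markers were detected, with a summed level of 757 to 1701 CPM (read counts scaled to library size with TMM factors) in young, 299.5 to 548 CPM in saline-treated and 397 to 661 CPM in MCC950-treated libraries. Markers of other cells were also present. The summed level of 10 proximal tubule markers had a median of 3472, 3065 and 5287 CPM in the 3 groups, and that of 10 macrophage and myeloid markers a median of 1538, 2757 and 2248 CPM. The podocyte markers had a median of 1312, 449.8 and 500.9 CPM, below both in each group. Sums over different genes do not measure shares of cells. In such bulk libraries, fewer cells of a type and less RNA per cell cannot be told apart.

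Young replicate 1 stood apart. It had 51.5% mitochondrial counts, the highest proximal tubule marker score of the young mice (8.51, the mean log2 CPM of the markers) and the lowest macrophage and myeloid score of all 21 libraries (5.03, against 6.03 to 7.32 in the other young mice).

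Promoter sequence was available for 28 of the 37 members, as the 250 bases before the transcription start in RefSeq on GRCm38. The core of the ISRE was searched as GAAANNGAAA, its longer form as GAAANNGAAACT and the GAS as TTCNNNGAA, on both strands, and overlapping matches were counted. Where a gene had several starts, a match in any window counted and the first window is printed. An ISRE core was found for 15 of the 28 members (53.6%) and for 3.46% of all 27025 genes that have a window. The longer form was found for 9 of 28 members (32.1%) against 0.255% of these genes, and a GAS for 9 of 28 (32.1%) against 8.13%. By list, 5 of 6 type II genes held an ISRE core and 3 of 6 a GAS, while 4 of 7 type I genes held an ISRE core and 2 of 7 a GAS. Both lists therefore held both elements in these windows. A match is a description of the letters and does not show that a factor binds there. The stretches below are shown for members whose values are described in the next paragraphs: 3 of the type II list, 2 of the type I list, and 3 others that differed with age. They read 5′ to 3′ along the gene, the matches are in capitals, and a match on the opposite strand reads TTTCNNTTTC.
Gbp2 chr3:142620584-142620633 (+): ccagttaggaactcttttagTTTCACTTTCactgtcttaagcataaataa
Gbp7 chr3:142530210-142530312 (+): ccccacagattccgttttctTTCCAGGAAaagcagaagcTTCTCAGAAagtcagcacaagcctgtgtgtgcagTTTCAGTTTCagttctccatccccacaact
Irf1 chr11:53769904-53769952 (+): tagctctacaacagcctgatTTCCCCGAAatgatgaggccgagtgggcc
Ifit1 chr19:34640765-34640833 (+): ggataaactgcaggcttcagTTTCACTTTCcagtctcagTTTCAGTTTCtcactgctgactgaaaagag
Oas3 chr5:120777705-120777754 (-): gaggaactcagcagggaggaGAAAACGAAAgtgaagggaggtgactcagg
Rsad2 chr12:26456543-26456592 (-): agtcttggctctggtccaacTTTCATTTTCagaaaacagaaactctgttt
Irgm1 chr11:48871421-48871470 (-): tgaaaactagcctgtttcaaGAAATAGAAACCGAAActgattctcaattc
Isg20 chr7:78913331-78913379 (+): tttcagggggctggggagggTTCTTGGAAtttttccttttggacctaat

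The match of Gbp2 began 59 bases before its start and that of Rsad2 120 bases before. Gbp7 held an ISRE core that began 53 bases before its start beside a pair of GAS matches further upstream, and the overlapping matches of Irgm1 began 30 and 24 bases before. In Irf1 and Isg20 only the GAS was found, 90 and 73 bases before the start. The window of Ifi44, the member that differed most with age, held no exact match to any of the 3 motifs. Near matches were not searched in any window, so a form of the element with other letters or spacing may be present. An ISRE and a GAS match overlapped in Bst2 only.

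Levels differed widely among the members. Exon length was taken as the union of all exons that GENCODE lists for a gene. This can be longer than a single transcript, so the order of the members per kilobase depends on it. Per kilobase of exon, Irf1 was the highest member in each group, with a median of 48.1 CPM per kb in young, 40.0 in saline-treated and 41.9 in MCC950-treated mice. Irf1 was also the highest in CPM not scaled to length. The next was Bst2, the membrane tether that holds budding viruses, at 15.9, 18.3 and 16.8 CPM per kb, followed by Ifit3 at 13.4, 12.8 and 9.81. The lowest in young mice were Mx2 and Oas3 at 0.777 and 0.686 CPM per kb. In both groups of middle-aged mice the lowest was Ifi44, which ranked 30 of 37 in young mice.

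With age, no rise of the interferon-stimulated genes as a group was found. In saline-treated against young mice, 1 member rose and 5 fell at a threshold of 0.05 for the adjusted p (edgeR quasi-likelihood F test, Benjamini-Hochberg over all genes tested). The background was 12.2% of all genes tested called higher and 12.4% called lower. The members called lower (13.5% of 37) were near that background, and the members called higher (2.70%) were below it. The median log2 fold change was 0.01 over the 37 members and 0.02 over all genes tested. The 5 lower members were Ifi44, Rsad2, Iigp1, Irgm1 and Gbp7, and the higher one was Isg20. Without young replicate 1, 1 member was higher and 5 lower. By a second rule, which asked for a change over 2-fold beside an unadjusted p below 0.05, only Ifi44 was lower, against 2.92% of all genes tested.

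Ifi44 (chr3:151730922-151749910), a cytoplasmic protein induced by interferon, had the largest difference. Ifi44 ran from 6.74 to 11.5 CPM (median 8.97) in young, from 3.65 to 5.29 CPM (median 4.02) in saline-treated and from 2.77 to 5.66 CPM (median 3.13) in MCC950-treated mice. Every middle-aged mouse was below every young mouse, in both treatment groups. The log2 fold change was -1.08 ± 0.18 (SE, adjusted p = 0.000289), and the call was kept in each fit that left out 1 library, with an adjusted p between 0.000137 and 0.00165.

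Rsad2 (chr12:26442743-26456452) encodes viperin, an enzyme that makes a chain-terminating nucleotide against viral polymerases. Levels of Rsad2 had a median of 29.9 CPM in young (range 25.8 to 40.2), 22.6 CPM in saline-treated (range 17.1 to 25.4) and 17.1 CPM in MCC950-treated mice (range 11.5 to 28.0). The young and saline-treated libraries did not overlap, and the log2 fold change with age was -0.59 ± 0.17 (SE, adjusted p = 0.017). Without young replicate 2 or young replicate 4 it was no longer called, with an adjusted p of at most 0.0572. Ifi44 and Rsad2 were the only members without overlap between young and saline-treated libraries. Of all genes tested, 4.86% were lower and 4.51% higher without overlap.

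Irgm1, Iigp1 and Igtp are immunity-related GTPases, which act on the vacuoles of intracellular pathogens. In young mice Irgm1 was at 41.4, 53.2 and 61.2 CPM (lowest, median and highest), in saline-treated mice at 30.0, 36.8 and 45.5 CPM and in MCC950-treated mice at 35.2, 38.2 and 59.0 CPM. In 5 of 7 saline-treated mice Irgm1 (chr11:48865245-48871420) was below all young mice, and the log2 fold change was -0.47 ± 0.13 (SE, adjusted p = 0.00869). For Iigp1 the median was 37.2 CPM in young mice, between 25.4 and 47.7, against 18.1 CPM in saline-treated mice, between 9.77 and 25.4, and 18.6 CPM in MCC950-treated mice, between 14.6 and 41.8. Iigp1 was below all young mice in 6 of 7 saline-treated mice, with a log2 fold change of -0.98 ± 0.27 (SE, adjusted p = 0.0103). Both calls were kept whichever library was left out. The lowest, median and highest Igtp levels were 19.2, 23.2 and 24.9 CPM in young, 13.9, 17.0 and 25.3 CPM in saline-treated and 12.6, 15.3 and 25.0 CPM in MCC950-treated mice. Igtp had a log2 fold change of -0.33 ± 0.15 (SE, adjusted p = 0.119) and was not called with age.

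Isg20 (chr7:78913396-78920396), an exonuclease that degrades viral RNA, was the member called higher. Isg20 ran from 1.13 to 2.29 CPM (median 1.83) in young, from 2.13 to 3.87 CPM (median 2.88) in saline-treated and from 1.53 to 3.59 CPM (median 1.86) in MCC950-treated mice. It was above all young mice in 6 of 7 saline-treated mice, with a log2 fold change of 0.79 ± 0.24 (SE, adjusted p = 0.0178). Without young replicate 3 the adjusted p was 0.0642.

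**Figure D1:**
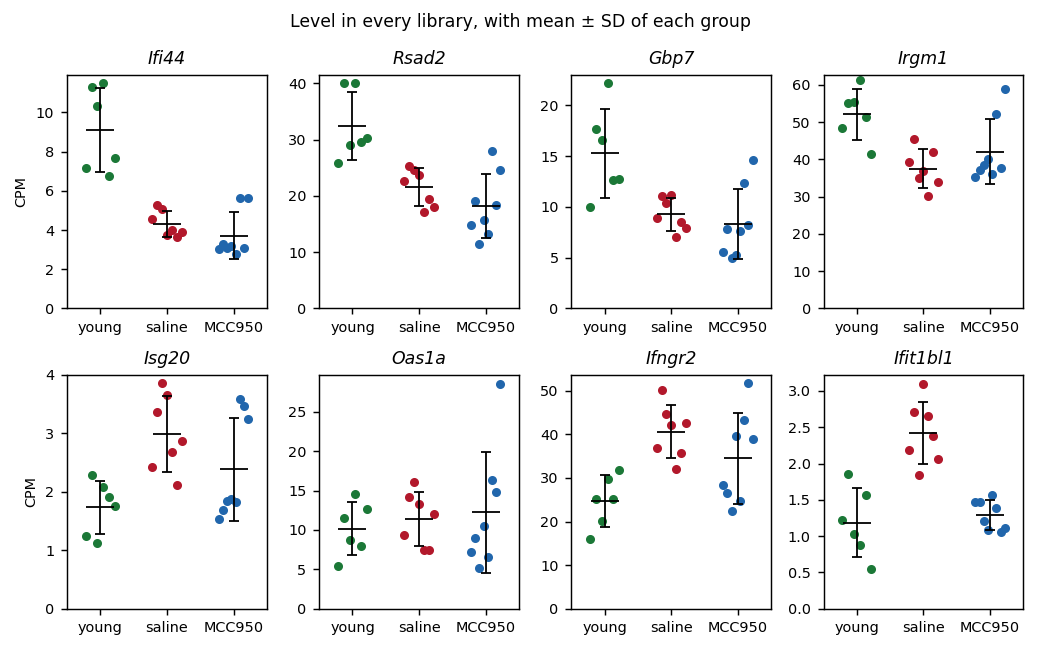
Level in CPM (TMM-scaled, linear axes from 0) in each library of the young (n = 6), saline-treated (n = 7) and MCC950-treated (n = 8) mice for 6 members and for the pathway genes Ifngr2 and Ifit1bl1. Points are libraries and the black marks are the mean ± SD, and all saline-treated points of Ifi44 and Rsad2 lie below all young points, while those of Oas1a overlap.

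All 7 genes of the type II list had a negative log2 fold change with age, between -0.72 and -0.19 with a median of -0.32, and 1 of them, Gbp7, was called. Of the 10 type I genes, 6 had a positive and 4 a negative value, between -0.29 and 0.25 with a median of 0.09, and none was called. At an unadjusted p under 0.05, 2 of the 7 and 0 of the 10 passed, against 36.9% of all genes tested in either direction. DESeq2 also called 5 members lower and 1 higher. The difference between the medians of the lists was -0.41, and it was not tested because the lists were chosen with results of these data known.

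Gbp7 (chr3:142530336-142550151) belongs to a run of 4 Gbp members at chr3:142496934-142638008. Levels of Gbp7 had a median of 14.7 CPM in young (range 9.98 to 22.2), 8.93 CPM in saline-treated (range 7.08 to 11.2) and 7.75 CPM in MCC950-treated mice (range 4.92 to 14.6). The log2 fold change of -0.72 ± 0.23 (SE, adjusted p = 0.0259) was lost without any one of young replicates 2, 3 or 4 or saline replicates 5, 6 or 7, with an adjusted p of at most 0.081. In young mice Gbp2 was at 10.5, 18.3 and 19.9 CPM (lowest, median and highest), in saline-treated mice at 8.38, 14.0 and 21.5 CPM and in MCC950-treated mice at 6.36, 8.93 and 17.5 CPM. For Gbp4 the median was 15.9 CPM in young mice, between 9.23 and 19.6, against 10.0 CPM in saline-treated mice, between 7.73 and 17.4, and 7.34 CPM in MCC950-treated mice, between 6.14 and 18.8. The log2 fold changes with age were -0.29 ± 0.25 (SE, adjusted p = 0.433) for Gbp2 and -0.51 ± 0.24 (SE, adjusted p = 0.125) for Gbp4, and in both genes the groups overlapped. The lowest, median and highest Gbp3 levels were 6.22, 13.7 and 20.3 CPM in young, 7.54, 12.2 and 18.6 CPM in saline-treated and 6.15, 9.15 and 18.1 CPM in MCC950-treated mice. Gbp5 ran from 4.23 to 12.7 CPM (median 6.68) in young, from 4.04 to 8.47 CPM (median 4.94) in saline-treated and from 2.97 to 8.53 CPM (median 4.99) in MCC950-treated mice. Their log2 fold changes were -0.19 ± 0.26 (SE, adjusted p = 0.649) and -0.36 ± 0.26 (SE, adjusted p = 0.332). The Gbp genes are close copies, and how reads that match several of them were counted is not given in the sources used here, so values of single Gbp genes are uncertain.

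The remaining type II members are regulators. Levels of Irf1 had a median of 191 CPM in young (range 132 to 235), 159 CPM in saline-treated (range 104.8 to 175) and 167 CPM in MCC950-treated mice (range 132 to 211). Its log2 fold change with age was -0.29 ± 0.14 (SE, adjusted p = 0.143). In young mice Socs1 was at 2.86, 5.63 and 7.29 CPM (lowest, median and highest), in saline-treated mice at 3.20, 4.35 and 5.78 CPM and in MCC950-treated mice at 3.53, 4.79 and 7.59 CPM. Socs1 blocks the Jak kinases, and its log2 fold change was -0.32 ± 0.21 (SE, adjusted p = 0.266). For both, the saline-treated libraries overlapped the young ones.

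In the type I list, the Ifit proteins bind foreign RNA and stop its translation. For Ifit1 the median was 7.005 CPM in young mice, between 4.80 and 10.2, against 6.17 CPM in saline-treated mice, between 4.27 and 7.61, and 6.05 CPM in MCC950-treated mice, between 4.18 and 15.4. The lowest, median and highest Ifit2 levels were 14.3, 25.1 and 29.3 CPM in young, 13.2, 17.9 and 25.4 CPM in saline-treated and 8.97, 17.3 and 29.6 CPM in MCC950-treated mice. Ifit3 ran from 20.4 to 28.6 CPM (median 23.5) in young, from 18.6 to 27.8 CPM (median 22.4) in saline-treated and from 9.24 to 36.2 CPM (median 17.1) in MCC950-treated mice. All 3 had small negative values with age, -0.29 ± 0.29 (SE, adjusted p = 0.491), -0.23 ± 0.25 (SE, adjusted p = 0.56) and -0.17 ± 0.23 (SE, adjusted p = 0.643) on the log2 scale. The Oas enzymes sense double-stranded RNA and activate RNase L. Levels of Oas1a had a median of 10.1 CPM in young (range 5.45 to 14.5), 12.0 CPM in saline-treated (range 7.41 to 16.1) and 9.70 CPM in MCC950-treated mice (range 5.17 to 28.5). In young mice Oas2 was at 8.29, 19.6 and 35.1 CPM (lowest, median and highest), in saline-treated mice at 13.5, 21.1 and 29.5 CPM and in MCC950-treated mice at 7.06, 14.8 and 63.1 CPM. For Oas3 the median was 4.85 CPM in young mice, between 2.07 and 8.49, against 5.46 CPM in saline-treated mice, between 3.27 and 8.44, and 3.79 CPM in MCC950-treated mice, between 1.74 and 14.0. The ranges of the groups lay on top of each other, with log2 fold changes of 0.17 ± 0.33 (SE, adjusted p = 0.757), 0.13 ± 0.40 (SE, adjusted p = 0.852) and 0.04 ± 0.40 (SE, adjusted p = 0.951). The SE of Oas2 and Oas3 were the largest of any member, at most 0.40. Oasl1 and Oasl2 are the related synthetase-like proteins. The lowest, median and highest Oasl1 levels were 2.09, 3.77 and 5.24 CPM in young, 3.01, 4.37 and 6.62 CPM in saline-treated and 2.63, 3.95 and 11.3 CPM in MCC950-treated mice. Oasl2 ran from 11.4 to 28.0 CPM (median 21.2) in young, from 17.5 to 30.9 CPM (median 22.3) in saline-treated and from 9.14 to 45.5 CPM (median 16.3) in MCC950-treated mice. Their log2 fold changes were 0.20 ± 0.31 (SE, adjusted p = 0.684) and 0.20 ± 0.30 (SE, adjusted p = 0.666). The Mx genes encode dynamin-like GTPases. Levels of Mx1 had a median of 10.6 CPM in young (range 3.78 to 12.9), 11.1 CPM in saline-treated (range 7.86 to 15.2) and 8.16 CPM in MCC950-treated mice (range 3.84 to 16.01). In young mice Mx2 was at 0.971, 2.81 and 4.39 CPM (lowest, median and highest), in saline-treated mice at 1.96, 2.96 and 3.50 CPM and in MCC950-treated mice at 1.81, 2.85 and 6.42 CPM. Neither was called, with 0.25 ± 0.29 (SE, adjusted p = 0.578) and -0.04 ± 0.30 (SE, adjusted p = 0.946). The median SE with age was 0.30 in the type I list and 0.24 in the type II list, and for 33 of the 37 members the log2 fold change with 2 SE to either side lay within a 2-fold change. Ifit3 and Oas1a have close copies, Ifit3b and Oas1g, and the limit on shared reads given for the Gbp genes holds for them too.

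**Figure D2:**
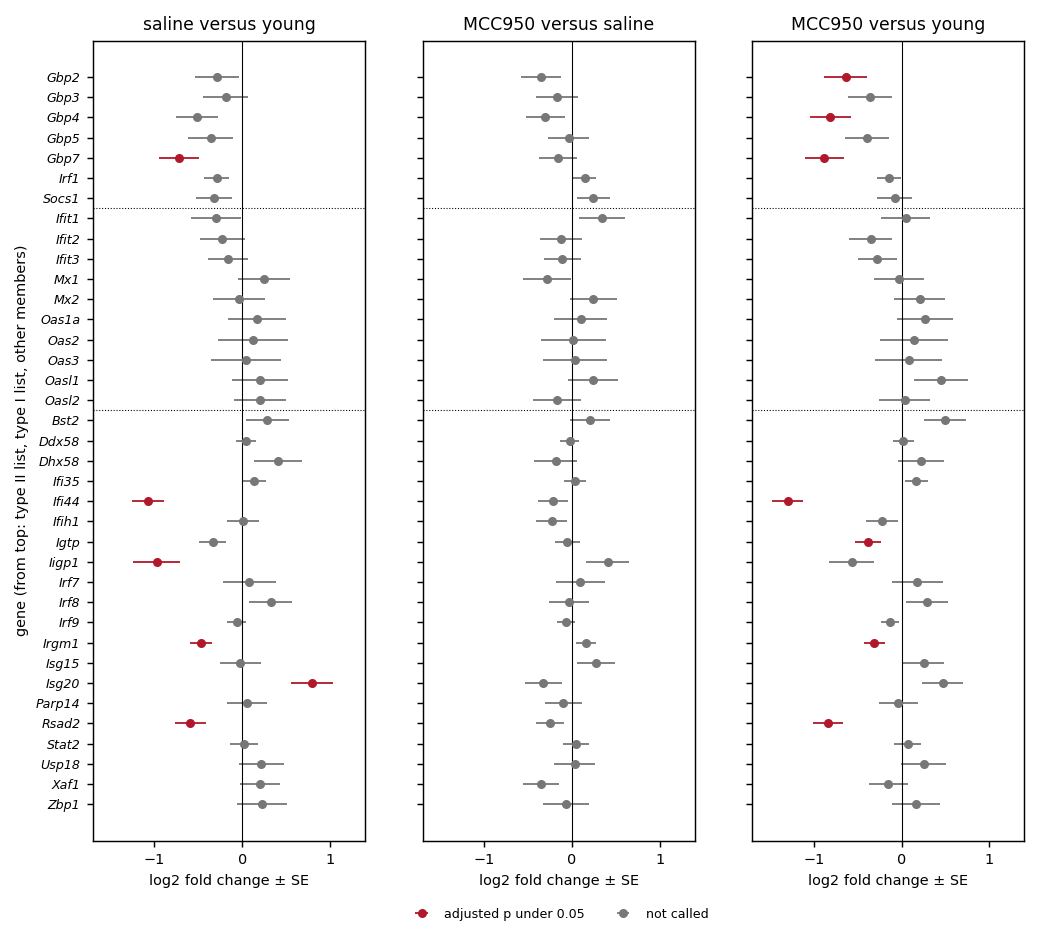
Log2 fold change ± SE (edgeR, 21 libraries in one fit) of the 37 members, in rows grouped as type II list, type I list and other members, for the 3 comparisons. Red points have an adjusted p under 0.05: 6 with age, 0 for MCC950-treated against saline-treated mice, and 7 for MCC950-treated against young mice.

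Among the other members, no transcription factor or sensor of the pathway was called with age. The log2 fold changes of Stat2 and Irf9, partners in the complex that binds the ISRE, were 0.02 ± 0.16 (SE, adjusted p = 0.942) and -0.06 ± 0.11 (SE, adjusted p = 0.719). Irf7, which amplifies the type I response, had 0.08 ± 0.30 (SE, adjusted p = 0.873), and Irf8, a factor of myeloid cells, had 0.32 ± 0.25 (SE, adjusted p = 0.37). The cytoplasmic RNA sensors Ddx58 (RIG-I), Ifih1 (MDA5) and Dhx58 (LGP2) had values of 0.04, 0.01 and 0.41. Isg15, the ubiquitin-like modifier, and Usp18, which removes it from proteins, had -0.02 and 0.22. Of the remaining members, Bst2, Ifi35, Xaf1, Parp14 and Zbp1 lay between 0.06 and 0.29, and none of these was called.

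The genes around the members were taken from fixed lists of 67 pathway genes. Of 21 interferon genes, none passed the filter on low counts. In 12 of them no read was counted in any library, which allows up to 3 counts or 0.0365 to 0.168 CPM a library, counting error only. The highest level of any interferon gene was 0.331 CPM. Ifng summed to 13 counts over the young, 71 over the saline-treated and 45 over the MCC950-treated libraries, and Ifnb1 to 18, 70 and 53. These totals are not scaled to depth, and the young libraries were the shallowest. Mean Ifng was 0.0921 CPM in young, 0.176 CPM in saline-treated and 0.0898 CPM in MCC950-treated mice, and mean Ifnb1 0.112, 0.176 and 0.115 CPM. Differences in these low values were not tested.

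Of 10 receptor and kinase genes, 4 were higher with age and none lower, with a median log2 fold change of 0.37. Of all genes tested, 12.2% were higher and 12.4% lower. Ifngr2, a chain of the interferon-gamma receptor, was higher in every saline-treated mouse than in every young mouse. For Ifngr2 the median was 25.3 CPM in young mice, between 15.98 and 31.8, against 42.2 CPM in saline-treated mice, between 32.0 and 50.1, and 33.6 CPM in MCC950-treated mice, between 22.4 and 51.8. Its log2 fold change was 0.72 ± 0.19 (SE, adjusted p = 0.00811). The partner chain Ifngr1 had 0.56 ± 0.20 (SE, adjusted p = 0.0432), the type I receptor chain Ifnar1 0.40 ± 0.14 (SE, adjusted p = 0.0416) and Il10rb, which serves in the receptor of the lambda interferons, 0.50 ± 0.18 (SE, adjusted p = 0.0467). Of these 4, only Ifngr2 was called in each fit that left out 1 library. The macrophage and myeloid marker score was also higher with age, by 0.99 (exact permutation test, p = 0.0128), and beside it as a covariate none of the 4 was called, with 0.24 for Ifngr2 (adjusted p = 0.0751), 0.09 for Ifngr1 (adjusted p = 0.539), 0.04 for Ifnar1 (adjusted p = 0.698) and 0.04 for Il10rb (adjusted p = 0.727). In that fit 10.5% of all genes tested were higher and 10.4% lower with age.

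Of 11 genes that sense nucleic acids or induce interferon, 2 were higher and none lower with age. The background for this and the following lists was 12.2% of all genes tested called higher and 12.4% called lower. The lowest, median and highest Ikbke levels were 1.06, 1.57 and 2.65 CPM in young, 4.30, 5.61 and 8.83 CPM in saline-treated and 2.42, 4.52 and 15.5 CPM in MCC950-treated mice. Ikbke, a kinase that activates Irf3 and Irf7, had no overlap between young and saline-treated mice, with 1.95 ± 0.38 (SE, adjusted p = 0.000904). Irf5 had 0.75 ± 0.25 (SE, adjusted p = 0.0306). Of 6 negative regulators, the phosphatases Ptpn1 and Ptpn6 were higher, with 0.56 ± 0.14 (SE, adjusted p = 0.0066) and 0.61 ± 0.21 (SE, adjusted p = 0.0426). None of the 3 genes of ISG15 conjugation was called. Of 16 copies of member families, 15 were tested, of which 3 were higher and 3 lower. The higher ones were Ifit1bl1 with 1.03 ± 0.21 (SE, adjusted p = 0.00114), Oas1c with 0.76 ± 0.16 (SE, adjusted p = 0.00173) and Isg20l2 with 0.25 ± 0.09 (SE, adjusted p = 0.0478). The lower ones were Gbp10 with -0.95 ± 0.33 (SE, adjusted p = 0.0405) and the GTPases Tgtp1 and Tgtp2 with -0.90 ± 0.26 (SE, adjusted p = 0.0133) and -0.93 ± 0.25 (SE, adjusted p = 0.0087). The other Gbp copies tested went both ways and were not called. Gbp8 had 0.60 ± 0.29 (SE, adjusted p = 0.139) and Gbp9 0.05, while Gbp2b had -0.94 and Gbp6 -0.65. Tgtp1 and Tgtp2 are near-identical copies and were not told apart here. Beside the macrophage and myeloid score, Irf5 had 0.17 (adjusted p = 0.309), Ptpn1 0.27 (adjusted p = 0.0652), Ptpn6 0.06 (adjusted p = 0.664) and Isg20l2 0.17 (adjusted p = 0.249), all no longer called, while Ikbke, Ifit1bl1, Oas1c, Gbp10, Tgtp1 and Tgtp2 were still called. Irf5, Ptpn6, Isg20l2 and Gbp10 were also lost in 6 to 16 of the 21 fits that left out 1 library. With the podocyte or the endothelial score as a covariate, none of the pathway genes called with age was called. Few genes of any kind were called with age in these fits. Of 16377 genes tested, 12 were called with the podocyte score, and 4 were higher and 0 lower with the endothelial score.

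In MCC950-treated against saline-treated mice, 0 of 37 rose and 0 fell at this threshold by edgeR, where 11.9% of all genes tested were higher and 4.86% lower. DESeq2 also called 0, and by both tools 0 members had an unadjusted p under 0.05, a level that 31.6% of all genes tested reached by edgeR. The smallest adjusted p of a member was 0.252. The log2 fold changes lay between -0.35 and 0.41, with a median of -0.04 over the members and 0.00 over all genes tested. For all 37 members the log2 fold change with 2 SE to either side lay within a 2-fold change.

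In this comparison the type II list had a median of -0.16, with 2 positive and 5 negative values, and the type I list a median of 0.03, with 6 positive and 4 negative values. The proximal tubule score was higher in MCC950-treated mice by 0.81 (exact permutation test, p = 0.00559), and with it as a covariate 20 of the 37 members changed sign, and 2, Mx2 and Bst2, were called higher and 0 lower, against 3% and 2.37% of all genes tested. Irf1 and Socs1 were the positive type II members, with 0.15 ± 0.13 (SE, adjusted p = 0.47) and 0.25 ± 0.19 (SE, adjusted p = 0.398), and Gbp2 had the lowest value, -0.35 ± 0.23 (SE, adjusted p = 0.308). In the type I list the values ran from -0.28 ± 0.27 (SE, adjusted p = 0.497) for Mx1 to 0.34 ± 0.26 (SE, adjusted p = 0.403) for Ifit1. Of the members that differed with age, Ifi44 had -0.22 ± 0.17 (SE, adjusted p = 0.402), Rsad2 -0.25 ± 0.16 (SE, adjusted p = 0.311), Irgm1 0.16 ± 0.12 (SE, adjusted p = 0.362), Iigp1 0.41 ± 0.25 (SE, adjusted p = 0.268) and Isg20 -0.33 ± 0.21 (SE, adjusted p = 0.299). The 3 MCC950-treated mice highest in Isg20 were replicates 6, 7 and 8, between 3.25 and 3.59 CPM, and the other 5 lay between 1.53 and 1.88 CPM, below all saline-treated mice. Leaving out MCC950 replicate 6 made 1 member, Gbp4, lower at the threshold.

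Of the pathway genes outside the members, 4 of 15 tested family copies and 1 of 10 receptors and kinases were lower with the treatment. None in these lists was higher. Of all genes tested, 4.86% were lower and 11.9% higher. Ifit1bl1 ran from 0.543 to 1.86 CPM (median 1.13) in young, from 1.84 to 3.09 CPM (median 2.38) in saline-treated and from 1.05 to 1.56 CPM (median 1.30) in MCC950-treated mice. Ifit1bl1, a relative of Ifit1, was lower in all 8 MCC950-treated mice than in any saline-treated mouse, with -0.90 ± 0.18 (SE, adjusted p = 0.00412). Ifit1bl2 had -0.82 ± 0.23 (SE, adjusted p = 0.0201), Oas1c -0.44 ± 0.14 (SE, adjusted p = 0.04) and Gbp9 -0.61 ± 0.14 (SE, adjusted p = 0.0092). Of the receptors and kinases only Jak2 was called, with -0.22 ± 0.07 (SE, adjusted p = 0.044). That call was lost in 6 of 11 alternative fits, with an adjusted p of at most 0.295, and in 9 of the 21 fits that left out 1 library. Oas1c was lost in 3 of 11 and 9 of 21, Ifit1bl2 in 2 of 11 and Gbp9 in 1 of 11 (with the proximal tubule score, adjusted p = 0.218), and Ifit1bl1 in none. No sensor and no negative regulator was called. Ifit1bl1, Oas1c and Gbp9 are close copies of other family members, and the same limit on shared reads holds for them.

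In MCC950-treated against young mice, 0 members were higher and 7 lower, where 21.8% of all genes tested were higher and 16.5% lower. The share of members called lower was 18.9%. All 7 type II genes again had negative values, between -0.88 and -0.08 with a median of -0.39, and 3 were called. These were Gbp7 with -0.88 ± 0.22 (SE, adjusted p = 0.00411), Gbp4 with -0.81 ± 0.23 (SE, adjusted p = 0.00916) and Gbp2 with -0.64 ± 0.24 (SE, adjusted p = 0.0406). In the type I list 7 values were positive and 3 negative, with a median of 0.06, and none was called, the largest being 0.45 ± 0.31 (SE, adjusted p = 0.255) for Oasl1. The 4 other members called lower were Ifi44 with -1.30 ± 0.18 (SE, adjusted p = 1.99e-05), Rsad2 with -0.84 ± 0.17 (SE, adjusted p = 0.000711), Igtp with -0.38 ± 0.15 (SE, adjusted p = 0.0461) and Irgm1 with -0.31 ± 0.12 (SE, adjusted p = 0.047). Only Ifi44 had no overlap, where 4.66% of all genes tested were lower without overlap, and only Ifi44 was lower by the 2-fold rule (4.32% of all genes tested). Without young replicate 1 the counts were again 0 higher and 7 lower. With the proximal tubule score as a covariate, 3 members were lower and 10 higher (Mx2, Oas1a, Oasl1, Isg15, Isg20, Irf8, Ifi35, Dhx58, Usp18 and Bst2), where 16.6% and 22.5% of all genes tested were called, and the part of the tubule markers in these values was not tested. Ifi44, Rsad2, Gbp7 and Gbp4 were called in each fit that left out 1 library, while Gbp2, Igtp and Irgm1 were lost in 14 or more of the 21 fits. Iigp1, lower with age in saline-treated mice, had -0.57 ± 0.26 (SE, adjusted p = 0.0838). Of the pathway genes, Ifngr2 with 0.48 ± 0.18 (SE, adjusted p = 0.0414), Ikbke with 1.66 ± 0.37 (SE, adjusted p = 0.00165), Irf3 with 0.16 ± 0.06 (SE, adjusted p = 0.0351) and Ptpn1 with 0.48 ± 0.14 (SE, adjusted p = 0.00928) were higher. The lower ones were Tlr3 with -0.37 ± 0.10 (SE, adjusted p = 0.0047), Gbp9 with -0.55 ± 0.15 (SE, adjusted p = 0.00661), Gbp10 with -1.18 ± 0.32 (SE, adjusted p = 0.00692), Irgm2 with -0.46 ± 0.17 (SE, adjusted p = 0.0347), Tgtp1 with -0.87 ± 0.25 (SE, adjusted p = 0.00892) and Tgtp2 with -0.85 ± 0.24 (SE, adjusted p = 0.0081). Ifngr2 and Irf3 were each lost in 7 of 11 alternative fits, with an adjusted p of at most 0.934 and 0.619, and in 15 of the 21 fits that left out 1 library, and Irgm2 in 5 of 11 and 9 of 21. None of these pathway genes was called with the podocyte or the endothelial score as a covariate. Of 16377 genes tested, 348 were called in the fit with the podocyte score and 0 in the fit with the endothelial score.

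Within a library the 2 lists were compared by their mean log2 CPM. The type II mean was above the type I mean by 0.56 to 1.04 (median 0.80) in young, by -0.12 to 0.87 (median 0.39) in saline-treated and by -0.38 to 1.06 (median 0.40) in MCC950-treated mice. It was above the type I mean in all 6 young mice, in 6 of 7 saline-treated mice and in 7 of 8 MCC950-treated mice. Irf1, at 104.8 to 235 CPM over all libraries, raised the type II mean, while every other type II member was at 22.2 CPM or below. These means were not scaled to gene length, so the sign of the difference does not rank the 2 lists. The saline-treated mice overlapped the young ones through replicate 6 and the MCC950-treated ones through replicate 3. The type II mean itself had a median of 4.06, 3.64 and 3.37 in young, saline-treated and MCC950-treated mice, and the type I mean 3.35, 3.24 and 3.06.

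**Figure D3:**
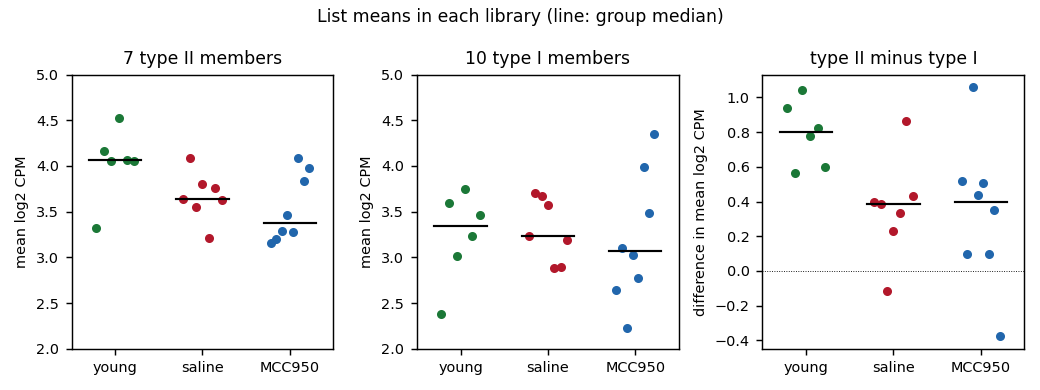
Mean log2 CPM of the 7 type II and the 10 type I members in each library, and their difference, by group, with a line at the group median. The difference has a median of 0.80 in young, 0.39 in saline-treated and 0.40 in MCC950-treated mice, and single middle-aged mice reach the young range.

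The spread among mice of one group was large beside these differences and was shared by most members. Young replicate 1 was the lowest young mouse in 32 of 37 members, and young replicate 4 the highest in 24. In the saline group, replicate 5 was the lowest in 24 and replicate 2 the highest in 25. In the MCC950 group, replicate 3 was the lowest in 21 and replicates 8 and 6 the highest in 17 and 16. The median SD of a member in log2 CPM was 0.43 in young, 0.31 in saline-treated and 0.55 in MCC950-treated mice. For the type I list in MCC950-treated mice it was 0.72, with Oas2 the most variable at 0.99, and for the type II list 0.53. Oas2 was at 63.1 CPM in MCC950 replicate 8 and at 7.06 CPM in the lowest mouse of that group.

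**Figure D4:**
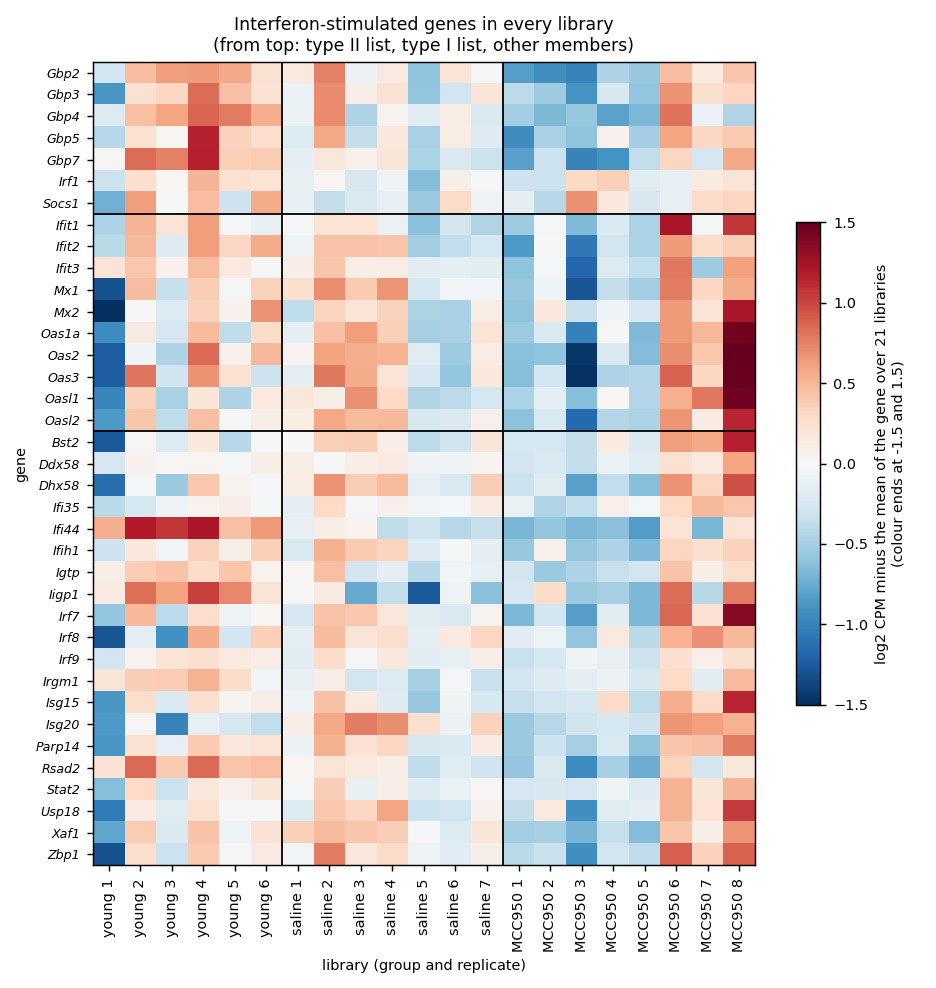
Log2 CPM of the 37 members (rows, grouped as type II list, type I list and other members) in the 21 libraries (columns), shown as the difference from the mean of the gene over all libraries. MCC950 replicates 6 and 8 are red and young replicate 1 and MCC950 replicate 3 blue in most rows, while Ifi44, Rsad2 and Gbp7 are red in most young libraries.

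Macrophage and myeloid markers moved with the members from mouse to mouse. The library with the lowest score was also the lowest in mean log2 CPM of the 37 members in each group, namely young replicate 1 (5.03 against a member mean of 3.01), saline replicate 5 (6.81 against 3.28) and MCC950 replicate 3 (6.12 against 2.97). The highest score and the highest member mean fell on the same library in the young (replicate 4) and the MCC950 group (replicate 8), and on replicates 3 and 2 in the saline group. Other scores had extremes on some of these libraries. The proximal tubule score was highest in young replicate 1 (8.51) and lowest in young replicate 4 (6.80), but its extremes in the other groups fell elsewhere. The podocyte score was highest in young replicate 4 and lowest in saline replicate 5 within their groups. The score of T and NK cells was lowest in MCC950 replicate 3 and highest in MCC950 replicate 8, but within the saline group it was highest in replicate 5. Between groups, the macrophage and myeloid score was higher with age by 0.99, from 6.49 ± 0.85 (SD, n = 6) to 7.49 ± 0.42 (SD, n = 7, exact two-sided permutation test, p = 0.0128, 0.0224 after adjustment over 21 tests). All 10 of its markers had positive log2 fold changes with age and 3 were called. Markers of other immune cells were higher with age too (exact two-sided permutation tests, 6 against 7 mice). The score of T and NK cells rose by 1.03 (exact p = 0.00117), with a median summed level of 10.6 CPM in young and 18.9 CPM in saline-treated mice. The score of B and plasma cells rose by 1.59 (exact p = 0.00233), with 93.0 and 499 CPM, and that of plasmacytoid dendritic cells by 0.90 (exact p = 0.00583), with 12.2 and 26.6 CPM. None of these 3 passed the test between MCC950-treated and saline-treated mice, and their part in the members' values was not tested. The macrophage and myeloid score did not pass the test between MCC950-treated and saline-treated mice (difference -0.28, exact two-sided permutation test, p = 0.374).

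**Figure D5:**
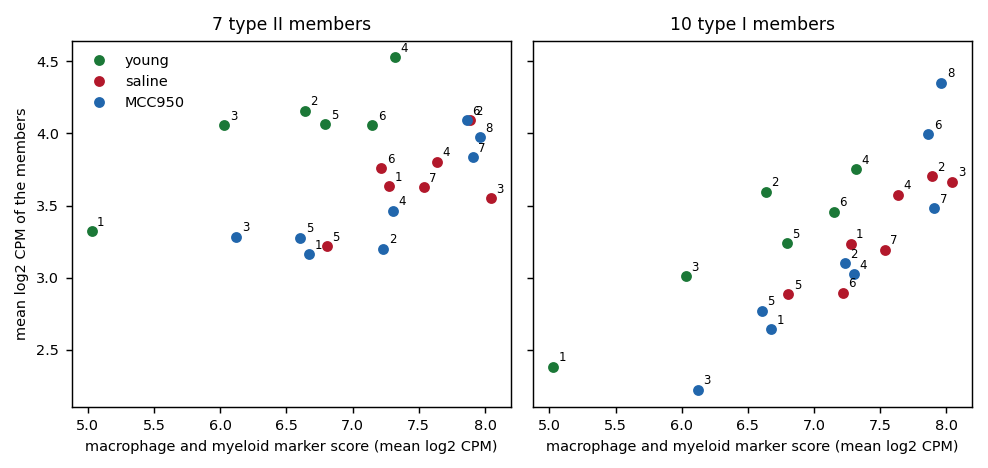
Mean log2 CPM of the 7 type II (left) and the 10 type I members (right) against the macrophage and myeloid marker score (mean log2 CPM of 10 markers), 1 point a library, numbered by replicate and coloured by group. Within each group the type I mean is lowest in the library with the lowest score.

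When the score was added as a covariate, 0 members were higher and 26 lower in saline-treated against young mice, where 10.5% of all genes tested were higher and 10.4% lower in the same fit. The 26 were 6 of 7 in the type II list, 8 of 10 in the type I list and 12 of 20 others, and the medians of the lists were -0.84, -0.71 and -0.43. In the type I list, Oas1a went from 0.17 ± 0.33 (SE, adjusted p = 0.757) to -0.70 ± 0.19 (adjusted p = 0.0127) and Ifit2 from -0.23 ± 0.25 (SE, adjusted p = 0.56) to -0.90 ± 0.14 (adjusted p = 0.000245). Isg20, higher without the covariate, had 0.29 (adjusted p = 0.275). In MCC950-treated against young mice 0 members were higher and 23 lower, where 26.5% and 19.1% of all genes tested were called. In MCC950-treated against saline-treated mice 2 members, Isg15 and Bst2, were higher and 0 lower, against 12.7% and 6.33%. No type I member was called lower with age without this covariate. The score and age moved together, and the part of each in these values was not tested.

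Between young and saline-treated mice, podocyte and endothelial markers went the opposite way to the macrophage and myeloid markers. The podocyte score fell by 1.75 and the endothelial score by 0.99 with age (exact two-sided permutation tests, both p = 0.00117, the smallest that 6 against 7 mice allow), and no saline-treated mouse overlapped a young mouse in either. In MCC950-treated against saline-treated mice the podocyte score was higher by 0.56 (p = 0.00591, exact permutation test) and the proximal tubule score by 0.81 (p = 0.00559, exact permutation test). With the podocyte or the endothelial score as a covariate, 0 members were called with age, and of all genes tested 11 and 4 were called higher and 1 and 0 lower. These scores and age cannot be told apart in the libraries compared. Gbp7 had 0.11 with the podocyte score (adjusted p = 0.911) and -0.72 with the endothelial score (adjusted p = 0.579).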

How the data were processed

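Podocyte fractions of 21 mice were analysed by mRNA-seq. The authors used TrimGalore for trimming, Bowtie2 for alignment to mm10 and featureCounts for counting. The deposited tables hold the resulting raw read counts for 27179 genes by Entrez Gene number. The annotation release, the strand setting and the handling of reads with several alignments are not given in the sources used here. The authors' DESeq2-normalized table lacks 1 library and was not used. Groups came from the labels, and replicates were single mice.

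The counts were fitted in edgeR 4.0.16 (R 4.3.3) with TMM, filterByExpr by group and the quasi-likelihood F test, with all groups in one model and Benjamini-Hochberg adjustment. SE was taken as |log2 fold change| over the root of F. List means used log2 CPM with a prior count of 2. Marker scores were compared by exact permutation tests (scipy 1.17.1, pandas 2.3.3, numpy 2.4.6, Python 3.11.15). Alternatives were DESeq2 1.42.0, other normalization and filters, marker scores as covariates, and each library left out. The endothelial score and libraries thinned to 5804891 counts outside mitochondrial genes were added after the data were seen. Medians in the closing section are back-transformed from log2 CPM. The workflow was tested on simulated data. Every type II and type I member and every other member called in a comparison was described, and pathway genes were named where called. The members and lists were chosen with earlier results of these data known. Gene names, coordinates and promoters came from RefSeq on GRCm38.p6, the same build as mm10. Exon lengths came from GENCODE.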

Additional observations from a re-analysis of the deposited data

Results flagged for a closer look

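For 39 quantities (each member and the means of both lists) in each of the 3 groups, the lowest or highest library was tested for its distance from the others with Dixon's criterion, which marks about 5% of groups by chance. It marked 5. In the young group, replicate 1 was far below the others in Gbp3 (6.22 CPM, group median 13.7 CPM), Irf9 (25.2 CPM, median 33.4 CPM), Ddx58 (14.6 CPM, median 17.7 CPM) and Usp18 (1.29 CPM, median 2.73 CPM). In the MCC950 group, replicate 6 was far above the others in Gbp4 (18.8 CPM, median 7.38 CPM). Young replicate 1 was the lowest young mouse in 32 of 37 members, so its marks are not separate results. Young replicate 1 also had the lowest macrophage and myeloid score of all libraries, and the part of this in its low values was not tested.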

How the results depend on the processing

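With the macrophage and myeloid score, 0 members were higher and 26 lower with age, 2 (Isg15 and Bst2) were higher for MCC950-treated against saline-treated mice, and 23 were lower for MCC950-treated against young mice. With the proximal tubule score, 2 members (Mx2 and Bst2) were higher for the treatment, and 10 were higher and 3 lower for MCC950-treated against young mice. With the podocyte or the endothelial score, 0 members were higher and 0 lower with age, and 0 lower for MCC950-treated against young mice, while of all genes tested (1996 higher and 2038 lower with age, 3572 and 2705 for MCC950-treated against young mice) the podocyte score left 11 higher and 1 lower with age and 348 in either direction for MCC950-treated against young mice, and the endothelial score 4 and 0, and 0 and 0. With the podocyte score the values with age of Gbp7 (0.11), Tgtp2 (0.046) and Isg20l2 (-0.069) changed sign, as did 11 of the 31 members not called with age (13 with the endothelial, 18 with the macrophage and 7 with the proximal tubule score). For MCC950-treated against young mice, 4 members were lower without a filter on low counts and 4 with only the 2 groups compared, in place of 7. For the treatment, all genes called went from 1957 higher and 796 lower to 492 and 388 with the proximal tubule score, and the genes lower became 1277 with the podocyte score, 492 with the endothelial score and 1215 with DESeq2. The cause of these shifts was not tested. With replicate number as a block, 11 members were lower for MCC950-treated against young mice, Gbp5, Ifit2, Iigp1 and Ifih1 among them, and no other count of members changed. The numbers were not treated as pairs, since libraries of the same number correlated between -0.14 and 0.40. Leaving out each library in turn, the members higher with age ranged from 0 to 1 (0 without young replicate 3) and those lower from 3 (without young replicate 2 or 4) to 6. For the treatment the members lower ranged from 0 to 1 (Gbp4, without MCC950 replicate 6). For MCC950-treated against young mice they ranged from 4 to 8, with 4 without any one of young replicates 2 to 5, saline replicates 1, 3, 4, 6 or 7 or MCC950 replicates 1 to 5. For the treatment, all genes higher ranged from 1008 to 2392 and those lower from 515 to 1007, both lowest without saline replicate 4. The difference between the list medians kept its sign with age in all fits, between -0.56 and -0.13, and for MCC950-treated against young mice, but for the treatment it ran from -0.30 to 0.02, the positive value with the replicate block, where 10 of 37 members changed sign. No interferon gene passed the filter, so none was tested.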
